A study of Mus musculus with 4 samples.

Results

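The Wnt ligands, their receptors and co-receptors, the R-spondins, the secreted Wnt antagonists and 4 intracellular members of the pathway were followed in mouse cardiac mesenchymal progenitors (CMPs) under the reprogramming factors Oct4, Sox2, Klf4 and c-Myc (OSKM). Members were chosen by gene symbol, with earlier results of these data known. They comprised every probe outside the control spots whose gene was a Wnt, Fzd, Sfrp, Dkk or Rspo gene, or was Lrp5, Lrp6, Wif1, Axin2, Lef1, Tcf7 or Ctnnb1. This gave 59 probes of 48 genes, of 55681 probes on the array, and 11 of the genes had more than 1 probe. By role there were 23 probes for ligands, 13 for Frizzled receptors, 3 for co-receptors, 4 for R-spondins, 9 for secreted antagonists and 7 for intracellular members.

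CMPs are Sca-1-positive cells taken from the hearts (the atria, by the study's methods) of adult wild-type C57BL/6 mice and grown in DMEM/F12 with 10% FBS and, by the labels, 40 ng/ml bFGF. The CMP control was untreated and is labelled day 0, and the other 3 conditions were CMPs given Sendai virus carrying the 4 factors and sampled at days 4, 6 and 8 (OSKM-CMPs), in a reprogramming medium from which leukemia inhibitory factor had been left out. Each condition was 1 single-colour Agilent array, all of C57BL/6 cells and all read in 1 scan, so no difference has a replicate, no test between conditions was possible, and the number of arrays limits the precision. Since there was no mock-infected or time-matched control, the factors, the virus, the medium and the time in culture cannot be told apart, and no source used here says whether the cells of the 4 arrays came from the same animals.

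Wnt proteins are secreted, lipid-modified ligands that bind Frizzled receptors together with the co-receptor Lrp5 or Lrp6. In the canonical branch this stabilises beta-catenin (Ctnnb1), which enters the nucleus and works through Tcf and Lef factors, while other ligands, such as Wnt5a and Wnt11, are best known for branches that do not use beta-catenin. Sfrp proteins and Wif1 bind the ligands outside the cell, Dkk1 blocks the co-receptors, and R-spondins raise the number of receptors at the cell surface. Canonical Wnt signalling is known in adipose biology for holding precursor cells back from becoming adipocytes, with Wnt10b the ligand best known for this.

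Upstream sequences are shown because they set the members with a TCF/LEF motif beside ligands that went from below background to detected. Of the 48 member genes, all were matched by symbol to RefSeq (GRCm38.p6), and 32 had a promoter window there (250 bases before to 50 after a gene's start). The TCF/LEF letters CTTTGAA or CTTTGAT, sought on both strands, were in a window of 3 of these 32 genes (9.38%), namely Dkk1, Wnt11 and Wnt5b, against 9.88% of all 27025 genes with a window. Wnt5b has 3 annotated starts, and the stretch shown is the one with the match. Capitals mark the match, which in the Wnt11 stretch lies on the reverse strand. Makeup differed too. The Dkk1 stretch held 6 CpG dinucleotides at 60.8% GC and the Wnt5b stretch 7 at 55.6%. The Wnt11 stretch held 37 at 70.8%, the Wnt6 stretch 28 at 79.6% and the Wnt7a stretch 34 at 77.6%. Of these genes, Dkk1 and Wnt11 were lower at day 8 and Wnt5b, Wnt6 and Wnt7a higher.
Dkk1 upstream, chr19:30549497-30549746, minus strand: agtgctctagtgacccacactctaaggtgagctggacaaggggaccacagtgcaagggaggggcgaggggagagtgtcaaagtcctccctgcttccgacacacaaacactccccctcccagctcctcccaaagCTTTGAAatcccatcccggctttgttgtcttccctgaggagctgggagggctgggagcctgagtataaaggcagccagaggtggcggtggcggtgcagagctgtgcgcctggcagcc
Wnt11 upstream, chr7:98834862-98835111, plus strand: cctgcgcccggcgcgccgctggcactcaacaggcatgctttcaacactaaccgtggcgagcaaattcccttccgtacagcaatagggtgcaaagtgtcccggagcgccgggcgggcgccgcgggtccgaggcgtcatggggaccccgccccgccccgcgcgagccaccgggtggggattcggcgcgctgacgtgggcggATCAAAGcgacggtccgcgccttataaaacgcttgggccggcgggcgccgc
Wnt5b upstream, chr6:119449387-119449636, minus strand: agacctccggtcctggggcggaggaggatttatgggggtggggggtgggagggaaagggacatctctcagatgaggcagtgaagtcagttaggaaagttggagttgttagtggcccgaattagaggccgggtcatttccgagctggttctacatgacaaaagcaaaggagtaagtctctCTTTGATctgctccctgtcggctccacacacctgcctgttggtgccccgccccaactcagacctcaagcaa
Wnt6 upstream, chr1:74771642-74771891, plus strand: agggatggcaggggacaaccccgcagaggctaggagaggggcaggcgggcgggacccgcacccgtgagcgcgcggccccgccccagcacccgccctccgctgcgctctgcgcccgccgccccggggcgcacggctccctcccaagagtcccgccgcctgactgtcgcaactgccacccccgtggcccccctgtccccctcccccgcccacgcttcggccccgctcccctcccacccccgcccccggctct
Wnt7a upstream, chr6:91411354-91411603, minus strand: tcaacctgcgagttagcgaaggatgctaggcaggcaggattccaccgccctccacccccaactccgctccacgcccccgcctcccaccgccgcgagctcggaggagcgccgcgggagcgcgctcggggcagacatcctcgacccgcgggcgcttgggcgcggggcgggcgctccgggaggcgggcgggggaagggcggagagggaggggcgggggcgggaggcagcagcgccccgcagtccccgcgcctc
The E-box letters CACGTG were in windows of Fzd9, Lef1, Rspo4, Wif1 and Wnt9a (5 of 32 genes, 15.6%, against 8.09% of all genes), and the letters CCACACCC, a form of the Klf4 motif, in windows of Ctnnb1, Tcf7 and Wnt2b (3 of 32, 9.38%, against 4.09%). A match describes the letters in a window and is not a binding site, and the members with a TCF/LEF match moved in different directions. One probe sequence is also shown, because it lies across an exon junction. Its 60 bases cover 569 bases of mm9 in Wnt4, the build used by the array files, and the other Wnt4 probe lies at chr4:136855342-136855401.
Wnt4 junction probe, chr4:136851690-136852258, plus strand: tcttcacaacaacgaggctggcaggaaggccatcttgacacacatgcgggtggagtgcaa

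On each array, the background-subtracted signal of a probe was taken as log2 relative to the 75th percentile of that array, and this is called its level here. A probe counts as above background where Feature Extraction flagged it as well above background, and errors (±) are 1 SD of the Feature Extraction error model, which covers error within an array and neither cultures nor RNA preparation. Of the 59 member probes, 39 (66.1%) passed on the control array, and 41 (69.5%), 42 (71.2%) and 43 (72.9%) on the OSKM-CMP arrays in the order of time. For the whole array these shares were 56.6%, 57.2%, 56.7% and 59.6%. Of the member probes, 35 were above background on all 4 arrays and 13 on none. The genes without a probe above background on any array were Axin2, Dkk4, Fzd10, Rspo4, Wnt2b, Wnt3, Wnt3a and Wnt8a. For these 8 genes no change can be given, and a level under background is not a level of 0.

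A difference is called higher or lower here where 2 arrays differed by at least 2-fold. Where only 1 of the 2 arrays was above background, the difference is a lower bound, taken against the dim array's own value or, if higher, the lowest value above background on that array. At day 4, 16 of 44 measurable member probes were higher (36.4%) and 7 lower (15.9%), against 8.82% and 7.03% of all probes. At day 6, 12 of 46 were higher (26.1%) and 8 lower (17.4%), against 10.2% and 8.81%. At day 8, 14 of 45 were higher (31.1%) and 7 lower (15.6%), against 12.0% and 9.12%. The median difference of the member probes was 0.30, 0.39 and 0.32 (log2) at the 3 days, beside -0.01, -0.04 and 0.00 for all probes.

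**Figure D1:**
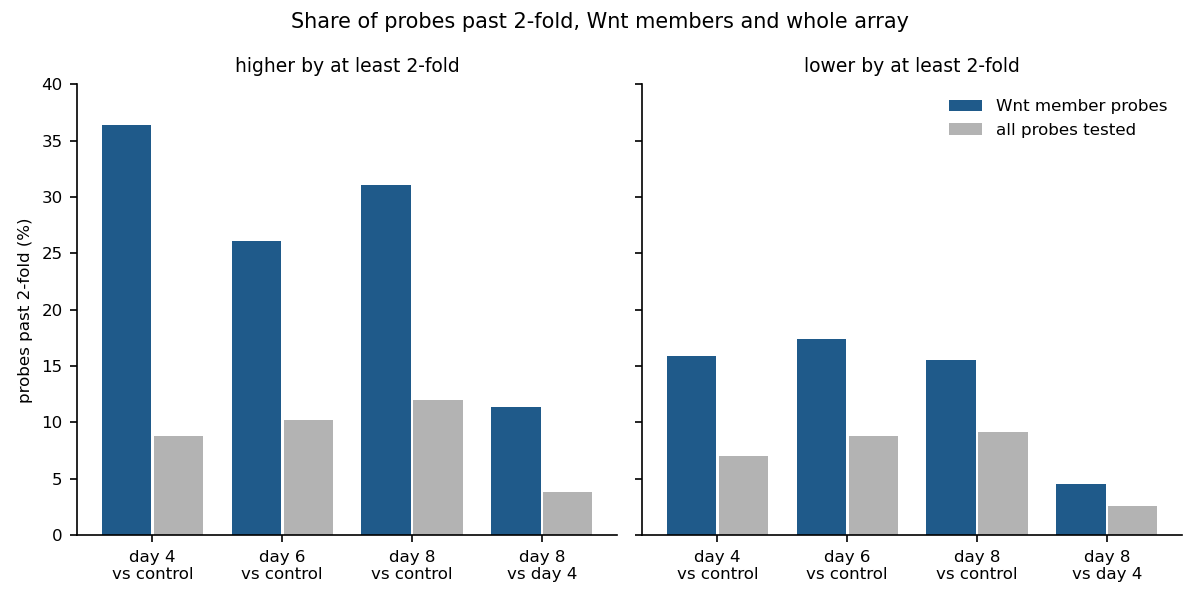
Share of probes (%, from 0) that were higher (left) or lower (right) by at least 2-fold in each comparison, for the Wnt member probes (dark bars) and all probes measurable in that comparison (grey bars). The member bars for higher probes run from 36.4% at day 4 to 31.1% at day 8, beside 8.82% and 12.0% of all probes, and with 44 to 46 member probes a single probe moves a bar by more than 2 percentage points.

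A probe that enters only because it was bright on one array had to differ, so the 35 member probes above background on all 4 arrays are given as well. Of them, 10 were higher and 6 lower at day 4 (28.6% and 17.1%, against 7.19% and 6.16% of all such probes). At day 6 these were 8 and 7 (22.9% and 20.0%, against 8.69% and 8.12%), and at day 8, 8 and 6 (22.9% and 17.1%, against 10.3% and 8.78%). The background correction mattered more. With normexp correction (offset 50) and quantile normalization, which compress dim probes, 6 member probes were higher and 5 lower at day 4 (13.6% and 11.4%, against 3.77% and 3.57% of all probes), so that 54.5% of the changed members were higher in place of 69.6%. The counts were 7 and 4 at day 6 (15.2% and 8.70%, against 4.52% and 4.55%) and 7 and 4 at day 8 (15.6% and 8.89%, against 5.11% and 5.02%). Scaling by the array median moved the median of all probes by -0.14, -0.13 and -0.27 at the 3 days and gave members 13 higher and 8 lower, 10 and 9, and 12 and 8. No share of all probes past 2-fold is given on that scale, so its counts describe the members alone.

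Over the time course, 27 probes of 26 genes passed 2-fold on at least 1 day. Of these, 23 had done so by day 4, 3 did so first at day 6 (Rspo3, Sfrp5 and Wnt11) and 1 at day 8 (Fzd1). On all 3 days 9 probes were higher, those of Dkk3, Rspo1, Tcf7, Wnt10a, Wnt4 (both probes), Wnt5b, Wnt6 and Wnt7a, and 6 were lower, those of Dkk1, Fzd5, Fzd8, Sfrp1, Sfrp4 and Wnt9a. Another 6 had passed 2-fold earlier and were not called at day 8 (Dkk2, Fzd4, Fzd9, Wif1, Wnt10b and Wnt16), where the Wnt16 probe was below background. The share of all probes with each of these patterns over the 3 days was not computed, so the counts describe the members alone.

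Among the ligands, 9 of 16 measurable probes were higher and 1 lower at day 4, 6 of 17 higher and 2 lower at day 6, and 7 of 16 higher and 2 lower at day 8, beside the array-wide shares given above. With normexp correction these counts were 2 higher and 1 lower, 3 and 0, and 3 and 0, against 3.77% to 5.11% and 3.57% to 5.02% of all probes. The ligands that were below background on the control array and above it on every OSKM-CMP array were Wnt10a, Wnt6, Wnt7a and Wnt9b. The level of Wnt10a (probe at chr1:74850633-74850692, mm9), a canonical ligand, was -7.41 and below background on the control array, and -2.58, -1.39 and -0.81 on the OSKM-CMP arrays of days 4, 6 and 8. It was thus at least 6.21-fold, 14.2-fold and 21.3-fold higher than the control at the 3 days, and it went on rising among the OSKM-CMP arrays, by 1.78 ± 0.21 (log2) from day 4 to day 8.

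Wnt6 is the gene next to Wnt10a on chromosome 1. Its level there was -6.60, under background, and then -2.98, -3.21 and -3.48, at least 4.72-fold, 4.03-fold and 3.32-fold higher than the control. Unlike Wnt10a, it was highest at day 4. Wnt7a (chr6:91314653-91314712), known from limb and nervous system patterning, went from -6.37 and below background to -2.77, -3.20 and -3.11, at least 5.44-fold, 4.04-fold and 4.31-fold higher. Wnt9b, known from kidney development, went from -5.34 and below background to -4.11, -4.31 and -3.54, at least 2.15-fold higher at day 4, 1.87-fold at day 6 and 3.19-fold at day 8. For all 4 of these the control value is only an upper limit, and with normexp correction the day 8 differences were 2.12 (log2) for Wnt10a, 0.51 for Wnt6, 0.62 for Wnt7a and 0.32 for Wnt9b, so that of these only Wnt10a stayed past 2-fold there. At day 4 normexp correction left Wnt10a short of 2-fold as well (0.92).

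Ligands detected in the CMP control moved both ways. Wnt5b (chr6:119382550-119382609), a ligand mostly placed in the branch without beta-catenin, went from 0.40 in the control to 1.73, 2.76 and 2.79. The difference was 1.33 ± 0.20, 2.36 ± 0.20 and 2.39 ± 0.20, or 5.24-fold at day 8, with most of the second step made between days 4 and 6. Wnt4, known from kidney and gonad development, was read by a pair of probes that moved alike. The junction probe printed above went from -4.13 to -2.61, -3.02 and -2.70, a difference of 1.43 ± 0.25 at day 8, and the other from -2.30 to -0.69, -0.63 and -0.56, a difference of 1.74 ± 0.21. With normexp correction these were 0.51 and 1.09. Wnt5a, the relative of Wnt5b, went from 2.31 to 3.02, 2.85 and 3.16 and stayed within 2-fold, at 0.85 ± 0.20 at day 8.

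Wnt10b and Wnt16 were highest at day 4 among the 4 arrays. Wnt10b went from -4.48 to -3.16, -3.83 and -3.57, a difference of 1.32 ± 0.32 at day 4 that was 0.91 ± 0.32 at day 8. Wnt10b, read by a single dim probe, was not lower on any OSKM-CMP array than on the control array. What it does in these cells was not tested. One Wnt16 probe went from -5.06 to -3.90 (1.15 ± 0.36) and was below background at days 6 and 8, and the other from -4.48 to -3.64, -3.86 and -4.27, with a difference of 0.84 ± 0.31 at day 4 and 0.21 ± 0.33 at day 8. With normexp correction neither Wnt10b nor Wnt16 passed 2-fold at day 4 (0.40 and 0.24).

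Wnt9a and Wnt11 were the ligands that were lower. Wnt9a, known from joint formation, went from 0.51 to -0.74, -0.60 and -0.57, with differences of -1.26 ± 0.20, -1.11 ± 0.20 and -1.09 ± 0.20. Its level was thus at its lowest by day 4. Wnt11, known from heart development, went from -2.34 to -2.83, -3.44 and -3.56, with differences of -0.50 ± 0.22, -1.11 ± 0.23 and -1.23 ± 0.23. With normexp correction the day 8 differences were -0.95 and -0.70, short of 2-fold. The other ligands above background on some array, Wnt1, Wnt2, Wnt7b and Wnt8b, were not called on any day, although for Wnt2 and Wnt8b at days 4 and 6 and Wnt7b at day 6 the differences are bounds under 2-fold and leave larger ones possible. The 2 Wnt1 probes disagreed, with one below background on all arrays and the other at 0.43, 0.36, 0.44 and 0.48.

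**Figure D2:**
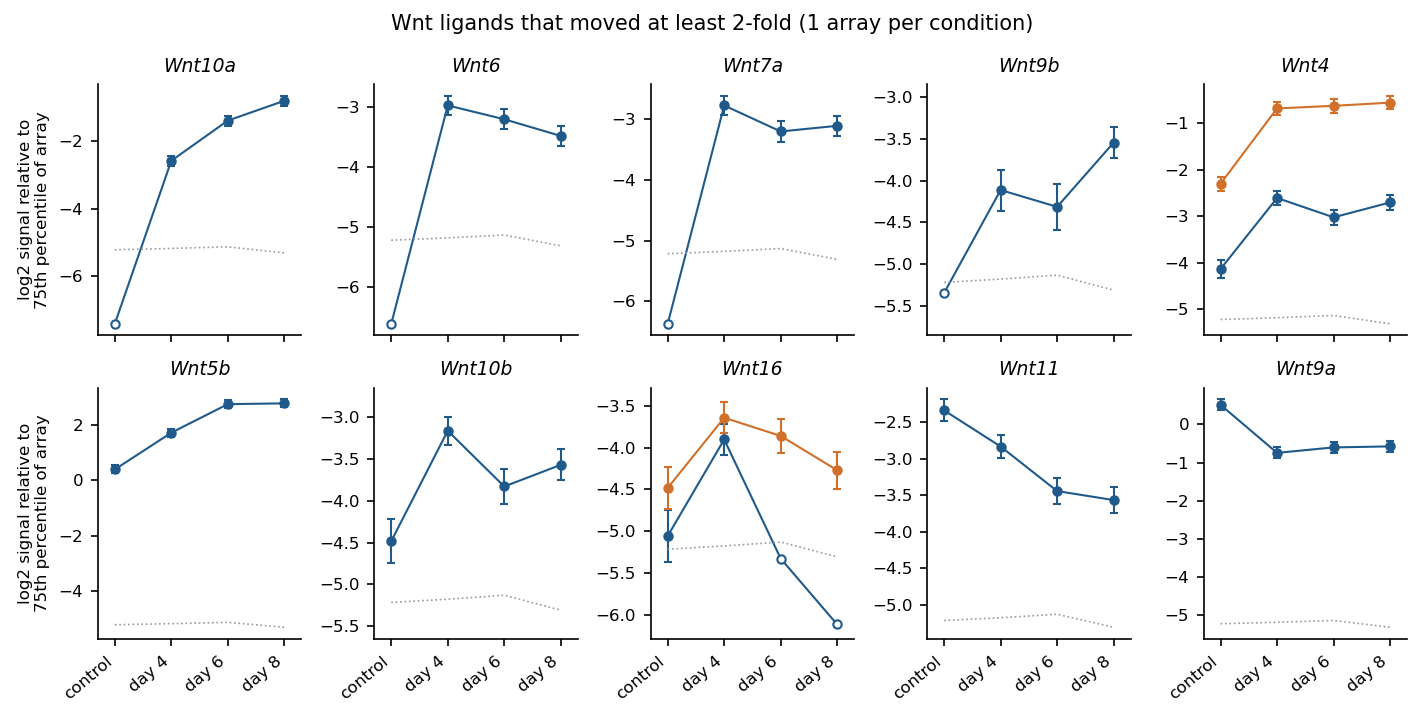
Level (log2 signal relative to the 75th percentile of the array) of the 10 ligands that moved at least 2-fold, on the 4 arrays. Filled points are above background and carry 1 SD of the error model, open points are below background, a second probe is in orange, and the dotted line is the lowest level above background on each array; levels compare within a panel only. Wnt10a, Wnt6, Wnt7a and Wnt9b start as open points, Wnt10b and Wnt16 peak at day 4, and Wnt11 and Wnt9a run downwards.

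Several ligands sit in neighbouring pairs on the chromosome, and the pairs did not share one pattern. On chromosome 1, Wnt6 and Wnt10a both went from below background to above it. On chromosome 11, Wnt9b was higher at days 4 and 8 while its neighbour Wnt3 stayed below background on all arrays. Wnt9a, also there, was lower while its neighbour Wnt3a stayed below background. On chromosome 15, Wnt10b was higher at day 4 while the detected probe of its neighbour Wnt1 stayed within 2-fold.

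The R-spondins are secreted partners that strengthen Wnt signals at the receptor. They had 1 of 3 measurable probes higher at day 4 and 2 of 3 at days 6 and 8, with none lower. The shares of all probes that were higher were 8.82%, 10.2% and 12.0% at the 3 days. Rspo1 (chr4:124686270-124686329) went from -4.12 to -1.37, -1.37 and -1.46, with differences of 2.75 ± 0.27, 2.74 ± 0.27 and 2.66 ± 0.27, or 6.32-fold at day 8. With normexp correction these were 1.24, 1.22 and 1.10. It was level over the 3 OSKM-CMP arrays. Rspo3 (chr10:29172930-29172989) was at -1.83 in the control and -1.60 at day 4, then 0.50 at day 6 and 0.92 at day 8. Its differences were 0.23 ± 0.21, 2.33 ± 0.21 and 2.74 ± 0.21. The step in Rspo3 thus came between days 4 and 6, and its difference from day 4 to day 8 was 2.51 ± 0.21. Rspo2 stayed within 2-fold, at 0.32 ± 0.20 at day 8, and Rspo4 was below background.

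The R-spondin receptors, a list of 3 genes that are not members, were dim. Lgr4 went from -4.67 to -3.44, -3.42 and -2.75, a difference of 1.93 ± 0.32 at day 8. The 2 Lgr6 probes differed by 0.15 ± 0.30 and 1.42 ± 0.31 from the control at day 8 and so disagreed, and both Lgr5 probes were below background on all arrays.

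Of the secreted antagonists, 3 of 7 measurable probes were higher and 3 lower at day 4, and 2 of 8 were higher and 3 lower at days 6 and 8. Over all probes, 8.82%, 10.2% and 12.0% were higher at the 3 days and 7.03%, 8.81% and 9.12% lower. Among member probes above background on both arrays of a comparison, the largest difference was that of Sfrp1 (chr8:24559438-24559497), a secreted Frizzled-related protein that binds Wnt ligands. Its level was 4.30 before the factors and 0.40, 0.83 and 0.98 after them. It was lower by 14.9-fold, 11.0-fold and 9.98-fold, with differences of -3.89 ± 0.20, -3.46 ± 0.20 and -3.32 ± 0.20. Sfrp4 (chr13:19724488-19724547), of the same family, went from 1.89 to -0.27, -0.46 and 0.19, with differences of -2.16 ± 0.20, -2.36 ± 0.20 and -1.70 ± 0.20. Both were lowest at day 4 or 6 and had moved back slightly by day 8, by 0.57 ± 0.20 and 0.46 ± 0.20 from day 4.

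The family did not move as one. Sfrp2 went from 2.42 to 2.70, 2.24 and 1.79, within 2-fold of the control throughout (-0.63 ± 0.20 at day 8). Sfrp5, known as an adipocyte-secreted Wnt inhibitor, was below background in the control (-5.79) and at day 4 (-5.16), and above it at day 6 (-4.12) and day 8 (-3.98), at least 2.13-fold and 2.35-fold higher than the control. With normexp correction its day 8 difference was 0.25. Frzb, a secreted Frizzled-related protein outside the symbols used to choose the members, went from 4.55 to 0.79, 0.21 and 0.38, with a difference of -4.17 ± 0.20 at day 8, and so was lower together with Sfrp1 and Sfrp4.

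The Dickkopf genes also split. Dkk1 (chr19:30621424-30621483), which blocks Lrp5 and Lrp6, was at -3.55 and above background in the control and below background on every OSKM-CMP array, at least 3.08-fold, 2.98-fold and 3.38-fold lower. With normexp correction its difference at day 8 was -0.45. Dkk3 (chr7:119259556-119259615), a divergent family member whose part in Wnt signalling is less settled, went from 5.19 to 6.90, 7.44 and 7.50, with differences of 1.71 ± 0.20, 2.25 ± 0.20 and 2.31 ± 0.20, or 4.95-fold at day 8. Dkk2 went from 1.56 to 2.58, 2.41 and 2.02, past 2-fold at day 4 alone (1.02 ± 0.20). It was at 0.46 ± 0.20 by day 8.

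Wif1, the Wnt inhibitory factor, changed direction. Its level was -2.96 in the control, rose to -1.92 by day 4, and was then -3.67 and -3.89. It was higher at day 4 (1.04 ± 0.22) and under the control level at days 6 and 8 (-0.71 ± 0.24 and -0.93 ± 0.25, within 2-fold), and from day 4 to day 8 it fell by 1.98 ± 0.24, or 3.93-fold. With normexp correction it was at 0.57 at day 4 and at -0.99 from day 4 to day 8, both short of 2-fold.

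**Figure D3:**
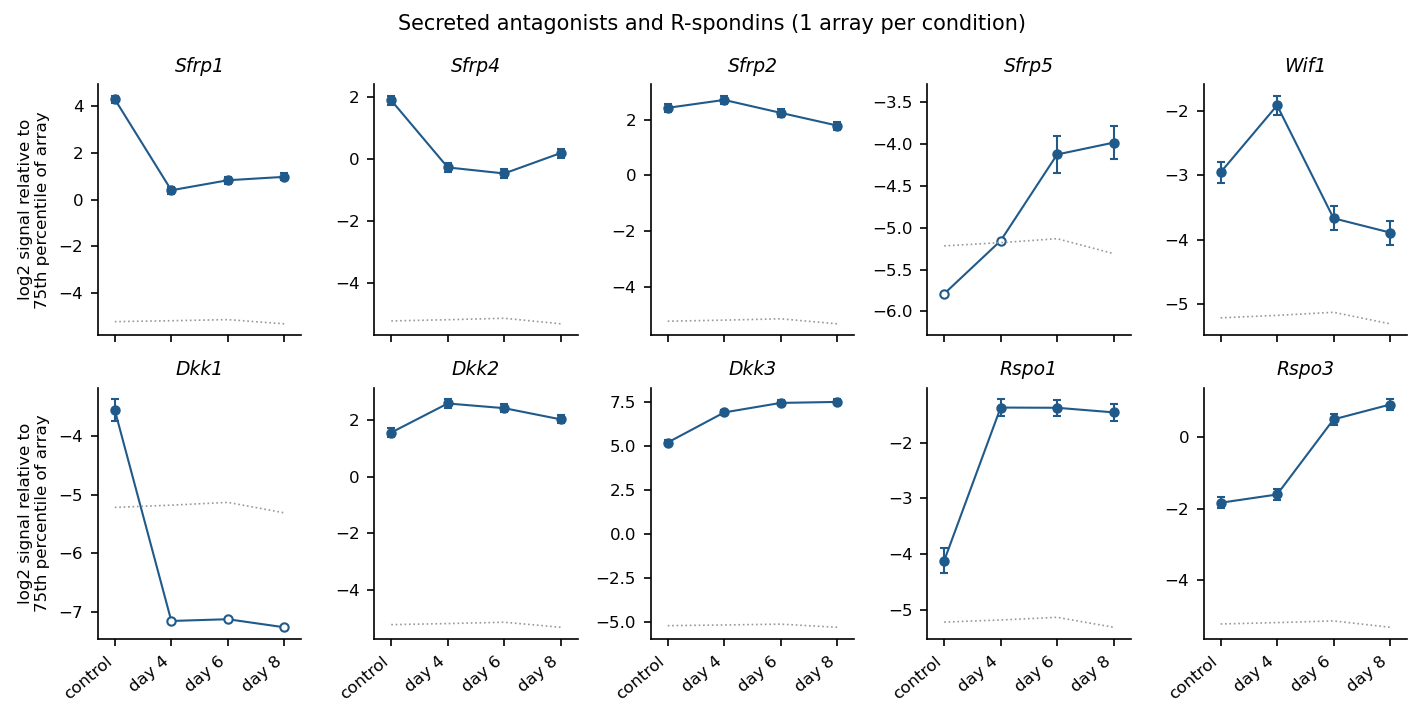
Level (log2 signal relative to the 75th percentile of the array) of 8 secreted antagonists and 2 R-spondins on the 4 arrays, with symbols as in the plot of the ligands; levels compare within a panel only. Sfrp1, Sfrp4 and Dkk1 drop at day 4, Wif1 peaks at day 4 and falls, Dkk3 and Rspo1 are higher from day 4, and Rspo3 and Sfrp5 are higher from day 6.

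Of 12 measurable probes of the Frizzled receptors, 1 was higher and 3 lower at days 4 and 6, and 1 higher and 2 lower at day 8. Over all probes, 8.82%, 10.2% and 12.0% were higher at the 3 days and 7.03%, 8.81% and 9.12% lower. The count of higher Frizzled probes was thus near the share of the whole array. With normexp correction 1 was higher and 2 lower on each day, against 3.77% to 5.11% and 3.57% to 5.02% of all probes. Fzd8 went from 1.11 to -0.63, -0.54 and -0.35, with differences of -1.74 ± 0.20, -1.65 ± 0.20 and -1.47 ± 0.20. Fzd4, also the receptor for norrin, went from 2.80 to 1.06, 1.64 and 2.12, lower by 3.34-fold at day 4 and 1.60-fold at day 8. Its return from day 4 to day 8 was 1.06 ± 0.20, just short of 2-fold with normexp correction.

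The 2 probes of Fzd5 started alike and parted. One (chr1:64781972-64782030) went from -1.67 to -3.17, -2.95 and -3.41 (-1.74 ± 0.22 at day 8), and the other (chr1:64779479-64779538) from -1.52 to -2.18, -2.06 and -1.90 (-0.37 ± 0.21), so that the change of this gene is uncertain. Fzd9 was the Frizzled gene that was higher early, from -1.47 to 0.30, -0.15 and -0.68, with differences of 1.77 ± 0.21, 1.32 ± 0.21 and 0.79 ± 0.21. Fzd1 was higher late, from 3.60 to 3.93, 4.45 and 4.70, passing 2-fold at day 8 (1.10 ± 0.20). With the array median as the scale it was 0.83 there. The probes of Fzd2, Fzd3, Fzd6 and Fzd7 stayed within 2-fold on all days.

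The co-receptors stayed within 2-fold on all 3 days in all 3 probes. Lrp5 went from 2.13 to 1.35, 1.5 and 1.47 (-0.66 ± 0.20 at day 8). The Lrp6 probes went from 0.18 to 0.50, 0.36 and 0.49 (0.31 ± 0.20) and from 4.26 to 4.50, 4.68 and 4.88 (0.62 ± 0.20). Lrp5 was thus under the control level and Lrp6 over it.

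Inside the cell, beta-catenin RNA stayed within 2-fold. Ctnnb1, with 2 spots on each array, was at 4.45, 4.38, 4.28 and 4.29, and its difference at day 8 was -0.16 ± 0.14, with the sign turned by normexp correction (0.025) and by quantile normalization alone (0.018). Its activity is set largely by protein stability, which these arrays do not measure. Tcf7 (chr11:52066114-52066173), a nuclear partner of beta-catenin and itself a known target of the pathway, went from -4.67 to -2.28, -2.39 and -2.42, with differences of 2.40 ± 0.29, 2.28 ± 0.29 and 2.26 ± 0.29, or 4.78-fold at day 8. Its other probe was below background on all arrays, and with normexp correction the day 8 difference was 0.74.

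Lef1, of the same family, was above background with 1 of its 2 probes, at -5.44 and below background in the control and -3.36, -4.39 and -3.89 on the OSKM-CMP arrays, at least 3.63-fold, 1.78-fold and 2.51-fold higher. The probe of Lef1 across an exon junction was below background on all arrays, and normexp correction gave 0.21 at day 8. Axin2, the target most often used as a readout of canonical signalling, was below background on all 4 arrays with both probes. Its values were -7.37, -5.26, -5.98 and -5.44 for one and -6.62, -5.60, -6.40 and -5.00 for the other, and no fold can be drawn from them.

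**Figure D4:**
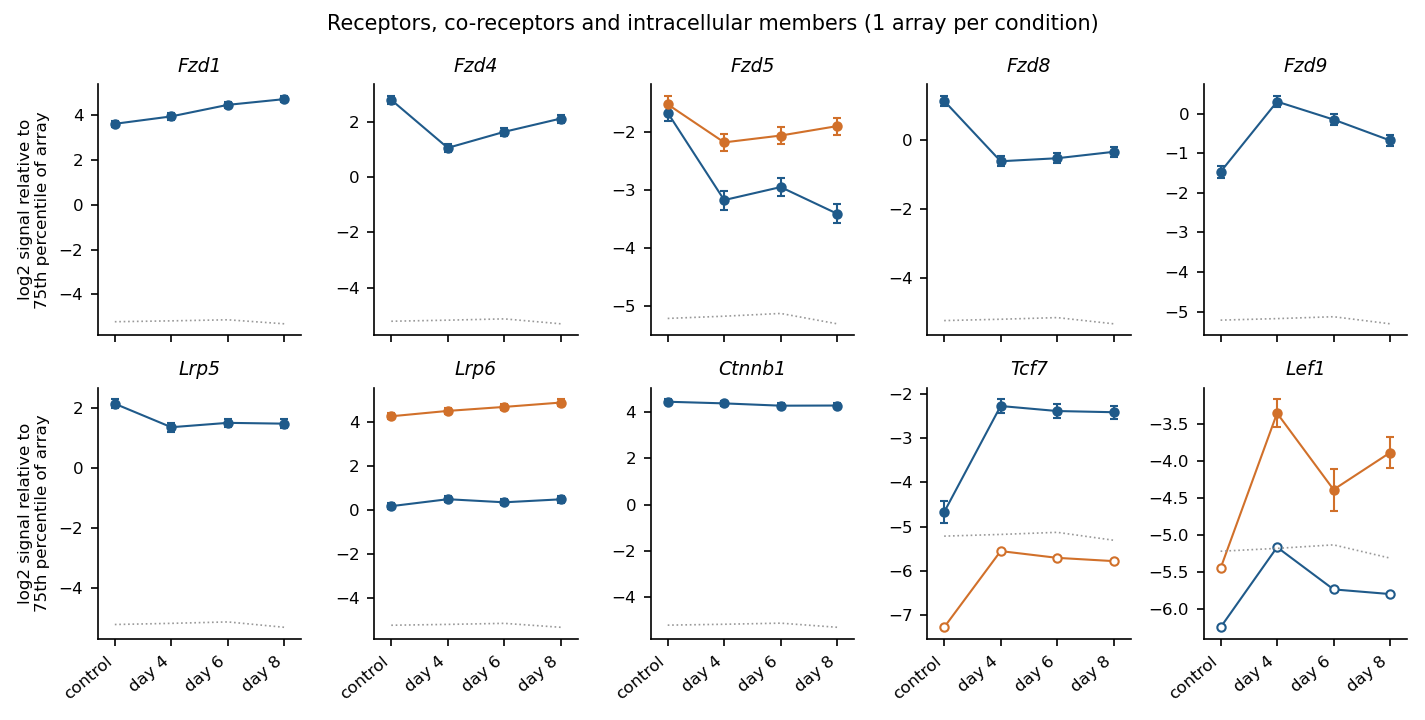
Level (log2 signal relative to the 75th percentile of the array) of 5 Frizzled receptors, the 2 co-receptors and 3 intracellular members on the 4 arrays, with symbols as in the plot of the ligands; levels compare within a panel only. Fzd4 and Fzd8 drop at day 4 and Fzd4 moves back, the Fzd5 probes part, Ctnnb1 is flat between 4.28 and 4.45, and the Tcf7 probe above background is higher from day 4.

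Among the OSKM-CMP arrays alone, 5 of 44 member probes were higher at day 8 than at day 4 (11.4%, against 3.78% of all probes) and 2 lower (4.55%, against 2.57%). The higher ones were Fzd4, Rspo3, Sfrp5, Wnt10a and Wnt5b, and the lower ones Wif1 and Wnt16. These comparisons share the day 4 array with those against the control. The split rests on the scale, since the array median gave 3 higher and 4 lower and normexp correction 3 higher and 0 lower, so that 42.9% and 100% of the changed probes were higher in place of 71.4%. No share of all probes is given for these 2 alternatives, so their counts describe the members alone.

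**Figure D5:**
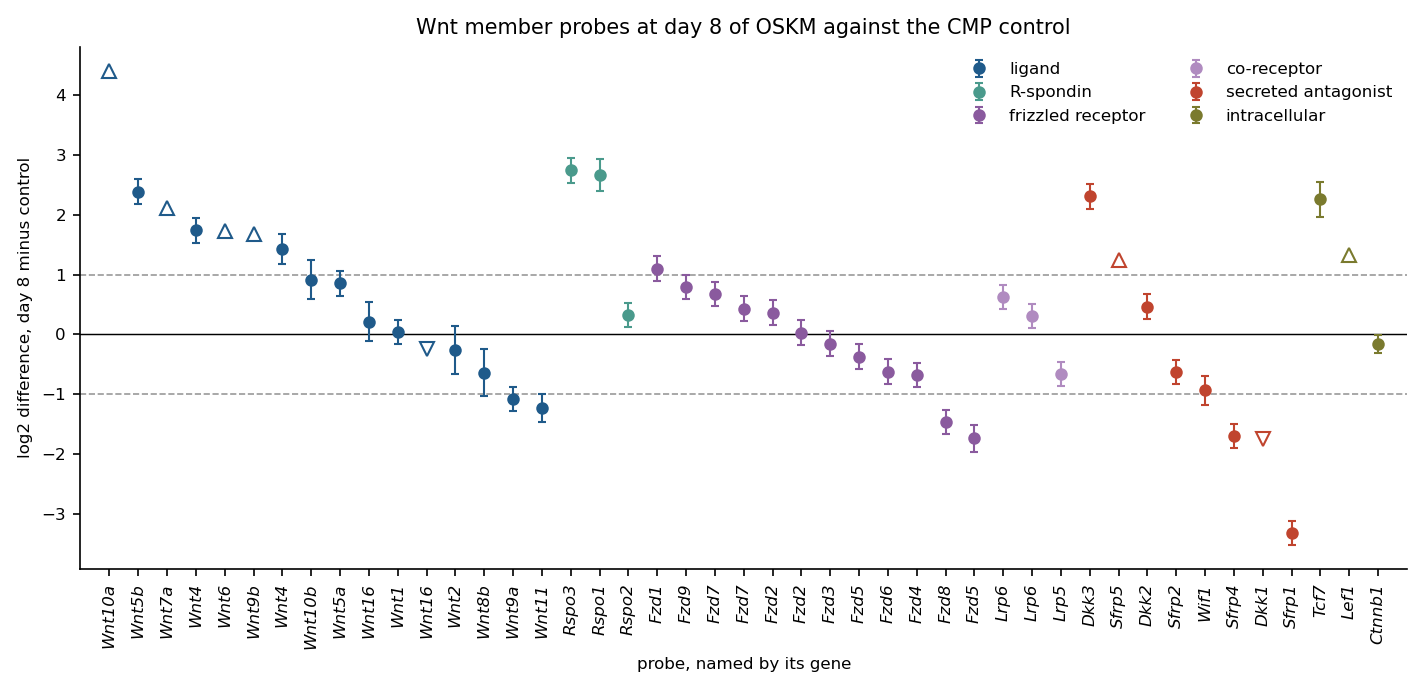
Difference between day 8 and the CMP control (log2) for the 45 member probes measurable in that comparison, grouped by role. Filled points carry 1 SD of the error model, open triangles are bounds where 1 of the 2 arrays was below background and point in the direction of the bound, and dashed lines mark 2-fold; 14 points lie at or above the upper line, led by Wnt10a, and 7 at or below the lower one, with Sfrp1 the lowest.

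Pathway genes outside the members were read from 6 lists, which share 5 genes and together held 70 genes with 110 probes. Counting each probe once, 13 of 95 measurable probes were higher (13.7%) and 14 lower (14.7%) at day 8, against 12.0% and 9.12% of all probes, so that the share of higher probes was near that of the whole array. Genes of Wnt secretion and modification stayed within 2-fold at day 8 in all 12 probes (5 genes, most probes for Tmed5). The differences ran from -0.65 ± 0.20 for a probe of Tmed2 to 0.89 ± 0.24 for one of Tmed5, both cargo carriers. One Tmed5 probe was lower at day 4 (-1.09 ± 0.26) and another at day 6 (-1.03 ± 0.25). Wls, the carrier of Wnt proteins to the cell surface, was at -0.29 ± 0.20 and Porcn, the enzyme that attaches their lipid, at 0.34 ± 0.20. Of 30 probes for cytoplasmic transducers, 0 were higher and 2 lower at day 8, Apc2 (-1.25 ± 0.20) and Dvl1 (-1.09 ± 0.20). Among probes above background on both arrays, the largest positive differences there were 0.65 ± 0.20 for a probe of Gsk3b and 0.54 ± 0.21 for one of Btrc, and an Apc probe that was below background in the control was at least 1.85-fold higher.

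The other antagonists and feedback inhibitors had 4 of 13 probes higher and 3 lower at day 8, against 12.0% and 9.12% of all probes. Beside Frzb, the lower ones were Apcdd1, a membrane inhibitor (-2.37 ± 0.21), and 1 of the 2 probes of Nkd2, an inhibitor that acts on Dishevelled, at -4.94 ± 0.23 while the other was at -0.44 ± 0.20. Nkd1, the relative of Nkd2, was higher by 1.65 ± 0.20 with one probe and at least 2.32-fold with the other, and both Dact1 probes were higher (1.23 ± 0.21 and 1.56 ± 0.21). Alternative receptors and planar polarity genes had 3 of 20 higher and 2 lower, near these shares of all probes. Daam2, a formin that binds Dishevelled, went from -4.23 to -0.05, 0.22 and -0.06, a difference of 4.17 ± 0.27 at day 8, and Prickle1 was at 1.19 ± 0.20. The 2 probes of Gpc4, a glypican, were at -0.89 ± 0.20 and -1.39 ± 0.22.

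Of 21 measurable probes for target genes of beta-catenin, 6 were higher and 7 lower at day 8, beside the shares of 12.0% and 9.12% over all probes. Wisp2 fell by 6.00 ± 0.20, from 6.96 to 0.96, and both Wisp1 probes fell by 1.90 ± 0.20 and 2.11 ± 0.20. Ccnd1 fell by 1.34 ± 0.20 and Jag1 by 1.43 ± 0.20. One Cd44 probe fell by 1.23 ± 0.20, while its other measurable probes stayed within 2-fold. Myc was at -3.08 ± 0.15 in this mouse probe, whose response to the human factor carried by the virus was not tested. Ascl2 was higher by 2.51 ± 0.22. Sp5, a direct target in many cell types, was named after its values had been seen: it was below background in the control (-5.52) and at -0.69, -1.67 and -2.50 on the OSKM-CMP arrays, at least 23.1-fold higher at day 4 and 6.57-fold at day 8.

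Markers of cell types moved over the same arrays, and a change in the share of a cell type cannot be told apart from a change in RNA per cell. The sum of linear signals of a list, in units of the 75th percentile of the array, is given for each. All 8 markers of Sca-1-positive mesenchymal cells were above background on all arrays, with sums of 1164 in the control and 1114, 1264 and 1435 on the OSKM-CMP arrays. Their single values moved both ways. At day 8, Ly6a, which encodes Sca-1, was higher by 2.69 ± 0.20 and Dcn by 3.06 ± 0.20, while Tcf21 fell by 4.65 ± 0.21, Thy1 by 1.78 ± 0.20 and Eng by 1.19 ± 0.20. Of 8 adipocyte genes, 3 were above background in the control, 7 at days 4 and 6 and 8 at day 8, with sums of 5.01, 46.9, 169 and 381. Wnt10a, Wnt5b, Rspo3, Fzd4 and Sfrp5 (a bound) were higher at day 8 than at day 4, while Wif1 and Wnt16 were lower. Between the same days 6 of the 9 adipocyte probes were higher, while Pparg was at 0.19, Cebpa at 0.85 and Lep at a bound of 0.22 (log2).

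Some markers were lower over the same arrays as Sfrp1, Sfrp4, Dkk1, Fzd8 and Wnt9a. The smooth muscle and pericyte list summed to 613 in the control and 60.4, 47.2 and 47.0 afterwards. Acta2, Tagln and Cnn1 fell by 5.09 ± 0.06, 4.78 ± 0.20 and 5.24 ± 0.22 at day 8, while Cspg4 was higher at day 4 (1.13 ± 0.20) and at 0.57 ± 0.20 at day 8, and Pdgfrb stayed within 2-fold. Myh11 was below background throughout. Of 6 endothelial genes, 6 were above background in the control and 3 on each OSKM-CMP array, with Cdh5, Emcn and Tie1 below background. Tek fell by 2.70 ± 0.27 at day 8, while Pecam1 and both Kdr probes stayed within 2-fold. The sum was 12.8 in the control and 11.8 to 12.9 later, but most of it was a single Kdr probe, at a level of 3.56 in the control and 3.53 at day 8. Of 5 epicardial and mesothelial genes, Wt1 and Lrrn4 went below background and Upk3b fell by 3.10 ± 0.21 at day 8, while Msln and Krt19 rose, and the sum went from 3.41 in the control to 22.5 at day 6 and 24.3 at day 8. Of 4 epithelial genes, 1 was above background in the control and 3 on each OSKM-CMP array, with sums of 0.605, 6.29, 3.72 and 5.19. Krt8 and Cdh1 went from below background to above it, and Epcam was below background throughout. Krt18, detected in the control, was higher at day 4 (1.09 ± 0.20) and under the control level at day 8 (-0.77 ± 0.21). Wnt10a, Wnt6, Wnt7a and Wnt4 were higher over the same arrays, and Wnt9b at days 4 and 8. Of 7 macrophage and leukocyte genes, 6 were above background in the control and 4 or 5 later, with sums between 4.37 and 5.28. Of 6 cardiomyocyte genes, 2 were above background in the control and 4 or 5 later, while the sum was 12.0 and then 4.62, 6.71 and 4.15. Tnnt2 among them differed from the control by -1.42 ± 0.20, -0.87 ± 0.20 and -1.60 ± 0.20. The part of any of these cell types in the Wnt values was not tested.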

How the data were processed

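RNA was measured on 4 single-colour (Cy3) Agilent SurePrint G3 Mouse GE arrays, 1 per condition, with 250 ng of RNA labelled for each. The authors extracted spot intensities with Feature Extraction (10.7.3.1 in the file headers, 9.5.3 in the submitters' processing notes); the intensity used is the deposited processed signal, already background-subtracted, with its error and flags. The authors' deposited log2 table, made in GeneSpring, equals the log2 of this signal shifted by a constant for each array (75th percentile near 0, medians from -4.22 to -3.96), and its column scale was settled by that match. The bFGF concentration given is that of the labels, and the study's methods give another.

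Control spots and outlier spots (87 to 106 per array) were left out, and none of the member probes lost a spot. No spot was saturated. Log2 signals were averaged over the spots of a probe and the array's 75th percentile (a signal of 389.3, 388.5, 406.4 and 410.9 for the control and days 4, 6 and 8) was subtracted. Spots of 1 probe repeated on an array had an SD of 0.063 to 0.068 (log2). From this scatter within arrays alone, a difference between arrays would have an SD of 0.091. That value leaves out any error between arrays, so it is not the technical SD of a difference. The errors printed with the differences come from the error model instead. With 1 array per condition no p-value was computed, and the main counts of each comparison are set beside those of all probes. Counts of patterns over the 3 days, and counts under most of the alternatives, have no such share beside them.

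Named members are those past 2-fold against the control on at least 1 day, with Ctnnb1, Axin2, Lef1, Tcf7, Lrp5 and Lrp6 whatever their change. For the other pathway lists, the 2 largest rises and falls at day 8 among probes above background on both arrays are named. Outside this rule are Wls, Porcn, Lgr5, Apcdd1, Sp5, Wisp1, Ccnd1, Jag1, Cd44, further probes of a named gene and the cell type markers. The members and lists were chosen with earlier results of these data known. The alternatives, 12 in all, were other background corrections, scales, filters, fold thresholds and summaries, the authors' values and a second detection flag. The step that calls differences was tested on simulated data, with changes well past 2-fold placed in bright probes. Recovery of changes in dim probes or near 2-fold was not tried. Promoters came from RefSeq (GRCm38.p6), and probe positions are on mm9. Python 3.11.15, numpy 2.4.6, pandas 2.3.3, matplotlib 3.10.9, R 4.3.3 and limma 3.58.1 were used.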

Additional observations from a re-analysis of the deposited data

How the results depend on the processing

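Of 460 values of single named probes recomputed under 5 other ways of making the values, 373 moved by less than their error, 87 moved by more (58 of them with normexp correction) and 0 of those past 2-fold changed sign. Among the rest, 4 values changed sign, all of Ctnnb1 and none over 0.16 in size as reported. With normexp correction and quantile normalization, 6, 7 and 7 member probes were higher at days 4, 6 and 8 and 4 lower at days 6 and 8, with medians of 0.14 at day 6 and 0.22 at day 8, and from day 4 to day 8, 3 were higher and 0 lower. The array median as the scale gave medians of 0.16, 0.26 and 0.056 at the 3 days, and from day 4 to day 8 a reversed median of -0.0071, with 3 higher and 4 lower. Without a filter on dim probes the median was 0.21 at day 8 and reversed to -0.086 from day 4 to day 8. Probes above background on all 4 arrays gave 10 higher at day 4 and 8 at day 8, a median of 0.17 at day 6, and from day 4 to day 8, 3 higher and 1 lower. A 1.5-fold threshold gave 19 higher at day 6, 13 lower at day 8 and 6 lower from day 4 to day 8, so that 53.8% of the probes changed from day 4 were higher. A 3-fold threshold gave 9 higher at day 4, 3 lower at day 6 and 4 at day 8, and from day 4 to day 8, 2 higher and 1 lower. With genes in place of probes the day 6 median was 0.28. The other counts were within 1.5 times those reported. Shares of all probes were given earlier for the normexp counts and the all-array counts against the control. The remaining counts in this section have no such share and describe the members alone. No paired analysis was possible because there was only 1 array for a condition, and for the same reason no array could be left out. Signal over background limits the values too: 13 member probes were below background on all arrays, and bounds stand for the ligands that were below background in the control.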
